A study of Mus musculus with 2 samples.

Results

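Matrix metalloproteinases (MMPs), the ADAMTS proteases and their ADAMTS-like relatives, and the tissue inhibitors of metalloproteinases (TIMPs) were followed through the cells of the mouse femur. The members were taken by gene symbol from the list of 32285 genes in the count tables, which gave 50 genes: 22 *Mmp*, 19 *Adamts*, 5 *Adamtsl* and 4 *Timp* genes. The rule uses no measured value.

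The study compared femoral cells of untreated C57BL/6J mice with those of calcitriol-injected mice of the same strain, both 7 weeks old and male per the study's methods. Calcitriol is 1,25-dihydroxyvitamin D3, the active hormone of vitamin D, and was given in 3 daily intravenous injections of 2.5 μg/kg, with the femurs taken 24 h after the last one. The bones of 6 mice per group were pooled, so each group is 1 library, there is no replicate check, and no test between the groups was possible. In both groups the ends of the femurs had been cut off, the marrow flushed out, the cells released with collagenase D and a chelator of calcium, and CD45-positive blood cells depleted.

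MMPs are zinc proteases of the extracellular matrix. Collagenases cut the triple helix of fibrillar collagen, gelatinases take up the loosened chains, stromelysins cut proteoglycans and activate other MMPs, and membrane-type MMPs work at the cell surface. Among the ADAMTS proteases, one group cuts aggrecan and versican and another removes the N-terminal propeptide of procollagen, whereas ADAMTS-like proteins lack the protease domain. TIMPs block MMPs directly, and TIMP3 also blocks several ADAMTS proteases. In bone, MMP13 made by osteoblasts and hypertrophic chondrocytes and MMP14 on osteoblasts and osteocytes are known from matrix remodelling, and ADAMTS4 and ADAMTS5 are the known aggrecanases of cartilage.

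*Mmp13*, *Mmp3* and *Timp1* are shown with the DNA before their transcription start because several results below turn on them. *Mmp13* (ENSMUSG00000050578, chr9:7272514-7283331) and *Mmp3* (ENSMUSG00000043613, chr9:7445822-7455975) belong to a run of 9 *Mmp* genes on chromosome 9 between 7272514 and 7699585, and *Timp1* (ENSMUSG00000001131, chrX:20870166-20874735) lies opposite to *Syn1*, a gene on the other strand. All coordinates are those of GRCm38. The lines give the 250 bases before the start of each gene from RefSeq (GRCm38.p6, plus strand), at chr9:7272264-7272513, chr9:7445572-7445821 and chrX:20869916-20870165. Capitals mark AP-1 motifs (TGANTCA) and RUNX motifs (AACCACA), searched on both strands.
Mmp13: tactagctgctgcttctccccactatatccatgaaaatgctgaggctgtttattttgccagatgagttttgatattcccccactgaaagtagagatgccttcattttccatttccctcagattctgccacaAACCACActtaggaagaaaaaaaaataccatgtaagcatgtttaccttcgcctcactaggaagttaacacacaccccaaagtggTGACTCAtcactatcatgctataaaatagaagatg
Mmp3: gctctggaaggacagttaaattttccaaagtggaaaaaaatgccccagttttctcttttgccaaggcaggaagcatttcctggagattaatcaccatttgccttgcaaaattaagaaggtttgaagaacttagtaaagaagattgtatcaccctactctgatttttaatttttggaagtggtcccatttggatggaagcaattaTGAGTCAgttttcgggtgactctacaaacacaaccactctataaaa
Timp1: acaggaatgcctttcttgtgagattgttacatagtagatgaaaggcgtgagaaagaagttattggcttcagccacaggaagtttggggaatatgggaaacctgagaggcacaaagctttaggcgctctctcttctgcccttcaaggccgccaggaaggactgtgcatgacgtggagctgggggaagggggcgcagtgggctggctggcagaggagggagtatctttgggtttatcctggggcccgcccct
The *Mmp13* window held a RUNX motif that begins 119 bases before the start and an AP-1 motif that begins 35 bases before it. The *Mmp3* window held an AP-1 motif 46 bases before the start, and the *Timp1* window held neither motif. An AP-1 motif was present in 6.75% of the 32851 promoter windows of the annotation and in those of 7 members (*Mmp3*, *Mmp7*, *Mmp10*, *Mmp12*, *Mmp13*, *Mmp1b* and *Mmp20*). The RUNX motif was in 4.40% of all windows and in those of *Mmp7*, *Mmp13* and *Mmp27*. The direct-repeat motif of the vitamin D receptor was in 0.0396% of all windows and in 0 of the 38 member windows, which cover 35 members. A match of letters is a description and shows no binding.

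The untreated library held 70266983 counts of unique molecular identifiers (UMIs, each counting 1 captured mRNA molecule) in 6076 barcodes, and the calcitriol library held 60392557 in 4562 barcodes. After the filters, 4434 and 3697 cells in 26 clusters were described. Haemoglobin took 41.2% of the UMIs in the untreated and 10.6% in the calcitriol library, and 8 barcodes were shared by the libraries, of which 2 were kept in both. The clusters were formed without the 50 members and named from other marker genes. A cluster of 87 untreated and 189 calcitriol cells, in which bone markers stood beside *Col2a1* at a level of 12698, was left unnamed by a limit set after the clusters had been seen. Levels are given in CPM, the UMIs of a gene scaled to a fixed total of UMIs of the same cells (counts per 1e6). They are not divided by gene length, since the reads come from the 3′ end and each molecule counts once.

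Over all kept cells the members took 508460 UMIs. At least 200 UMIs were held by 27 members, 21 members had fewer, and *Mmp20* and *Mmp1b* had 0. The 6 most abundant members were *Timp3* (98455 UMIs), *Timp1* (91535), *Mmp13* (86627), *Timp2* (85893), *Mmp2* (38933) and *Adamts1* (21063), which together took 83.1% of the member UMIs. *Adamts5* followed closely with 21058 UMIs.

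The families were laid out differently over the cell classes. Osteoblast-like cells and smooth muscle or pericyte-like cells were each the class with the highest level of 6 of the 27 more abundant members, and chondrocyte-like cells were that of 0. The osteoblast-like set was the collagenase *Mmp13* at 5087 CPM over both libraries, *Timp2* at 1930 CPM, the gelatinase *Mmp2* at 1177 CPM, the membrane-type genes *Mmp14* at 817 CPM and *Mmp16* at 29.4 CPM, and *Mmp23* at 140.3 CPM. The smooth muscle or pericyte-like set was *Timp3* at 2955 CPM (the unnamed cluster, left out of this order, had 3603 CPM), the proteoglycan-cleaving *Adamts1*, *Adamts4* and *Adamts15* at 1207, 709 and 36.6 CPM, *Adamts12* at 76.2 CPM and the stromelysin-type *Mmp11* at 17.9 CPM. The *Mmp11* level rests on 24 UMIs, and fibroblast-like cells were close at 15.2 CPM (217 UMIs). In the calcitriol library fibroblast-like cells were higher for *Mmp11*, at 20.97 against 18.1 CPM.

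The other classes had shorter lists. *Timp1* was highest in osteocyte-like cells with 3711 CPM over both libraries, ahead of osteoblast-like cells with 1877 CPM. This order came from the calcitriol library, since in untreated cells *Timp1* was at 956 CPM in osteocyte-like cells, 1763 CPM in osteoblast-like cells and 1504 CPM in chondrocyte-like cells. *Adamts6* was also highest in osteocyte-like cells with 36.0 CPM (40 UMIs). *Timp4* and *Adamts9*, another proteoglycan-cleaving gene, were highest in endothelial-like cells with 409 and 314 CPM. Synovial lining-like cells led for the aggrecanase *Adamts5* with 1942 CPM, and fibroblast-like cells came next with 333 CPM over both libraries, although in untreated cells osteoblast-like cells (254 CPM) lay above them (217 CPM). *Adamtsl5* was also highest in synovial lining-like cells, at 41.3 CPM.

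Tendon-like cells led for the stromelysin *Mmp3* (376 CPM, against 167 CPM in fibroblast-like cells) and for the procollagen N-proteinase *Adamts3* (12.5 CPM). Fibroblast-like cells led for *Mmp19*, *Adamtsl4* and *Adamtsl3* with 46.5, 38.2 and 30.2 CPM. *Mmp15* was highest in the 36 Schwann cell-like cells with 95.2 CPM (21 UMIs) and next in endothelial-like cells with 30.5 CPM. The small neutrophil-like class, of 32 untreated and 10 calcitriol cells, led for the procollagen N-proteinase *Adamts2* with 228 CPM and for *Adamts10* with 34.6 CPM (12 UMIs). Fibroblast markers summed to 12864 and 3459 CPM in that class. *Adamtsl1* was highest in skeletal muscle-like cells with 60.4 CPM (17 UMIs), a class of 41 untreated cells and 1 calcitriol cell.

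Erythroid-like cells, which should lack these genes, gave the background. Over both libraries, *Timp2* was at 5.73 CPM, *Timp1* at 3.92, *Timp3* at 3.61, *Mmp2* at 2.66 and *Mmp13* at 2.18 CPM. The background was lower in the untreated than in the calcitriol library, with 12.2 and 21.04 CPM for the sum of the 4 TIMPs. Its source was not tested. Haemoglobin took 67.6% of the UMIs of these cells in the untreated and 76.6% in the calcitriol library, which lowers the CPM of other genes.

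For the comparison of the groups, a member was counted as measured in a class from 50 UMIs on over both libraries, and as higher or lower with calcitriol from a 2-fold ratio on. Ratios are log2 values of the calcitriol level over the untreated level, and the brackets hold exact 95% intervals that cover counting error only, not the spread between mice or libraries.

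**Figure D1:**
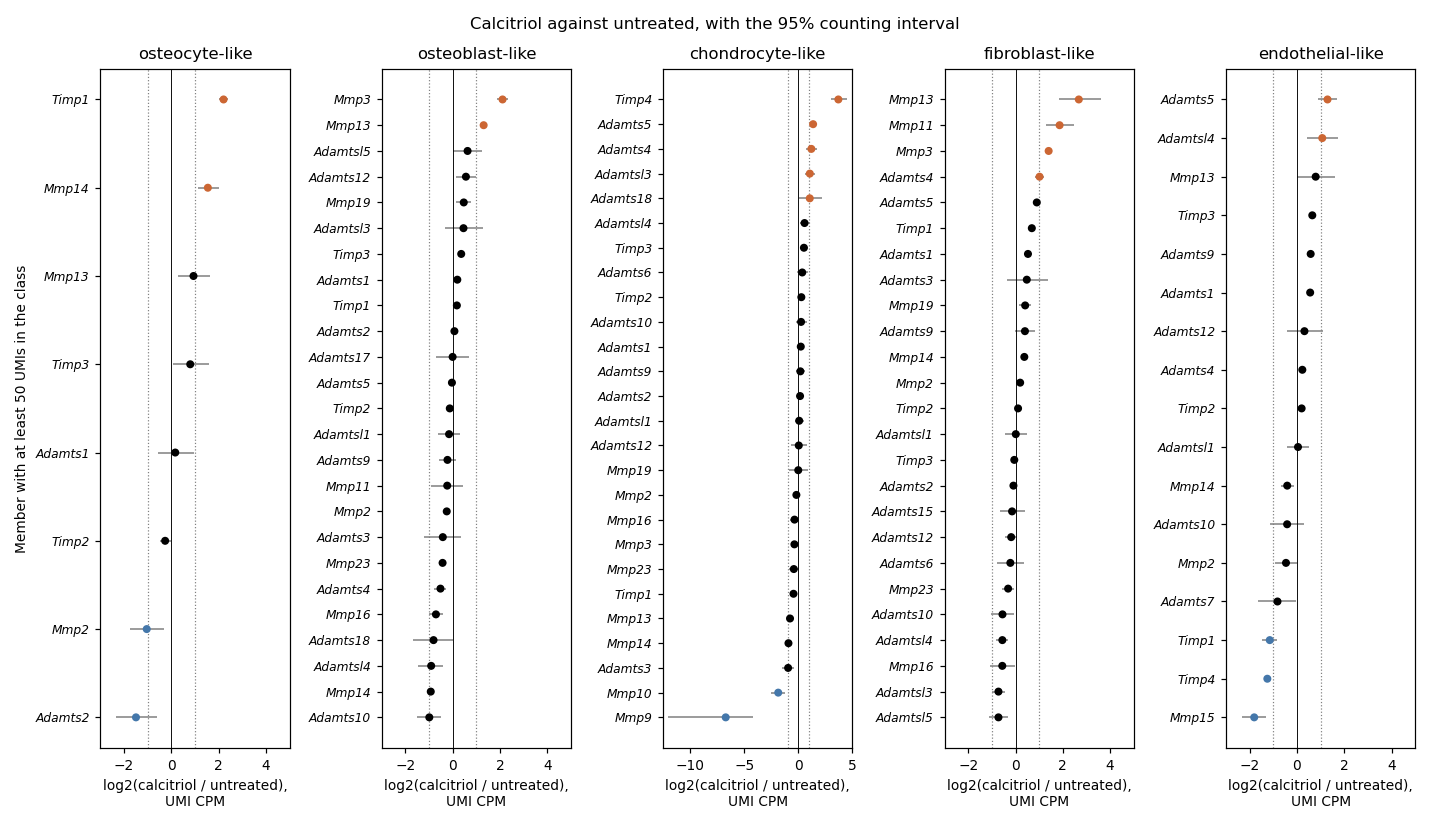
Log2 ratios of calcitriol over untreated for the measured members in the 5 classes compared (points) with exact 95% counting intervals (bars), where dashed lines mark 2-fold. The horizontal axis is wider for chondrocyte-like cells, where *Mmp9* rests on 1 UMI in the calcitriol library.

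The osteocyte-like class held few cells, 24 untreated and 69 calcitriol, with medians of 6771 and 8474 UMIs per cell. Its clearest feature was the inhibitor *Timp1*, which had 217 UMIs (956 CPM) without treatment and 3904 UMIs (4418 CPM) after calcitriol, a log2 ratio of 2.21 [2.01, 2.41]. The membrane-type protease *Mmp14*, which activates pro-MMP2 at the cell surface, was at 212 and 617 CPM, with a log2 ratio of 1.54 [1.12, 2.001]. Both lay past 2-fold as sums, although 1 calcitriol cell held 658 of the *Timp1* UMIs. With the highest cell of each library left out, the log2 ratios were 2.16 and 1.37. As a mean of the cells' own CPM they were 1.61 and 0.30, so *Mmp14* was then within 2-fold.

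*Mmp2* was lower, with 28 UMIs (123 CPM) against 53 UMIs (60.0 CPM) and a log2 ratio of -1.04 [-1.73, -0.33]. *Adamts2* was lower too, with 21 UMIs (92.5 CPM) against 29 UMIs (32.8 CPM) and a log2 ratio of -1.496 [-2.36, -0.61]. These are small counts, and without the highest cells *Mmp2* was within 2-fold at -0.87. The sign of *Mmp2* turned to 0.69 after thinning, and *Adamts2* was at 0.13 with the members among the variable genes. In all, 2 of 8 measured members were higher (7.08% of the 2612 genes measured in the class) and 2 were lower (6.09% of all genes). The median log2 ratio was 0.48 over the members and -0.05 over all genes.

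Among members that were not past 2-fold, *Timp2* was at 895 and 746 CPM (log2 ratio -0.26). *Timp1* therefore took 49.5% of the TIMP UMIs in the untreated and 83.3% in the calcitriol cells of this class.

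The *Timp1* UMIs were spread unevenly over the cells. The median over the untreated cells was 208 CPM with a range from 0 to 9177 CPM. Among the calcitriol cells, 8 held a UMI of *Fgf23*, the phosphate-regulating hormone gene of osteocytes, and in them *Timp1* ranged from 1465 to 47574 CPM with a median of 6277 CPM. The other 61 ranged from 0 to 14357 CPM with a median of 422 CPM, so the sets overlapped. Summed over cells, *Timp1* was at 8636 CPM [8238, 9048] and *Mmp14* at 1504 CPM [1341, 1682] in the 8 cells, against 3146 and 349 CPM in the 61 cells, while *Timp2* was at 703 and 759 CPM. *Mmp13* had 0 UMIs in the 8 cells and 164 UMIs in the other 61, of which 103 came from 1 cell. The 8 cells were deeper, with a median of 15559 UMIs against 8293, and the part of depth in these values was not tested.

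The make-up of the class differed between the groups in other genes. The 10 osteoblast markers summed to 80791 and 26119 CPM in untreated and calcitriol cells, with 1 and 0 of them at 0 UMIs, and the 7 osteocyte markers to 12797 and 19279 CPM, with none at 0. The 8 erythroid markers summed to 1679 and 20589.5 CPM, with 3 and 2 of them at 0 UMIs. The part of these differences in the member ratios was not tested. Larger osteocyte-like classes came from other settings of the clustering. With the members among the variable genes, the class held 96 untreated and 216 calcitriol cells and the log2 ratio of *Timp1* was 0.25. It was 0.32 at resolution 0.5, 0.08 with 20 components and 0.46 with clusters left out past any 1 of the 3 quality limits. *Timp1* was thus past 2-fold in the narrow class and not in these larger ones. At resolution 1.2 the class was of the narrow size, with 24 untreated and 69 calcitriol cells. Which cells the larger classes added was not examined, so their values may not describe more cells of the narrow kind. The unnamed cluster, with 87 untreated and 189 calcitriol cells, had *Timp1* at 1859 and 1385 CPM (-0.42).

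Osteoblast-like cells numbered 345 and 333. Here the collagenase *Mmp13* had 19458 UMIs (2926 CPM) without treatment and 48314 UMIs (7240 CPM) after calcitriol, a log2 ratio of 1.31 [1.28, 1.33]. *Mmp3* was at 32.3 and 139 CPM, with a log2 ratio of 2.11 [1.89, 2.33], but 441 of its 929 calcitriol UMIs came from 1 cell, and without the highest cells the ratio was 1.60. With each cell thinned to 2000 UMIs it was 0.97, within 2-fold. These 2 of 25 measured members were higher (3.29% of all 9852 genes measured in the class) and 0 were lower (2.66% of all genes). The median log2 ratio was -0.12 over the members and -0.10 over all genes.

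The *Mmp13* difference was present in both osteoblast-like clusters. In the cluster led by *Postn* (290 and 269 cells) it was at 3640 and 9136 CPM, with a per-cell median of 1002 and 4644 CPM. In the cluster led by the osteocalcin gene *Bglap* (55 and 64 cells) it was lower, at 309 and 1329 CPM, with a log2 ratio of 2.11, with a large part of its 440 untreated UMIs in 1 cell. After thinning of each cell to 2000 UMIs, which left 345 untreated and 329 calcitriol cells, 54.2% and 65.3% of the cells held a UMI of *Mmp13*, against 0.498% and 0.752% of erythroid-like cells at the same total depth. Most of the erythroid-like UMIs were haemoglobin, so fewer were left there for other genes. Without the highest cells the log2 ratio of *Mmp13* in osteoblast-like cells was 1.32.

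**Figure D2:**
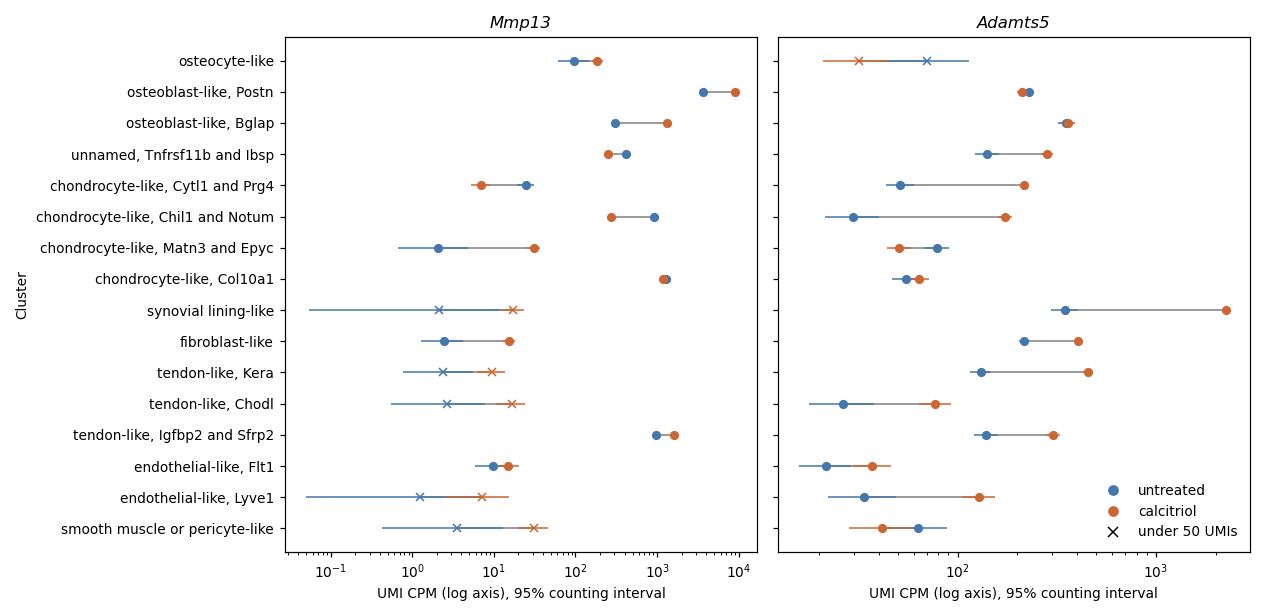
Levels of *Mmp13* and *Adamts5* in each cluster with counting intervals, for untreated and calcitriol cells, in CPM on a log axis. *Mmp13* is highest in the osteoblast-like cluster led by *Postn*, at 3640 and 9136 CPM, and *Adamts5* in the synovial lining-like cluster, at 347 and 2263 CPM.

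The other abundant proteases of osteoblast-like cells were not past 2-fold as sums. *Mmp14* was at 1072 and 563 CPM, a log2 ratio of -0.93 [-0.99, -0.87], and *Mmp2* at 1280 and 1074 CPM (-0.25). *Mmp23* was at 161 and 119.6 CPM (-0.43), *Adamts4* at 47.7 and 33.3 CPM (-0.52), and *Adamts1*, *Adamts2* and *Adamts5* had log2 ratios of 0.19, 0.07 and -0.03. The inhibitors were within 2-fold as well, with *Timp2* at 2014 and 1847 CPM (-0.12), *Timp1* at 1763 and 1989.7 CPM (0.17) and *Timp3* at 677 and 867 CPM (0.36). *Timp3* differed by cluster, with 412 and 1203 CPM in the *Bglap* cluster, a log2 ratio of 1.54. In the *Postn* cluster the per-cell median of *Mmp14* was 1024 CPM in untreated and 408 CPM in calcitriol cells. The 7 markers of smooth muscle or pericytes summed to 865 and 120 CPM in the osteoblast-like class, and their part in these values was not tested.

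Chondrocyte-like cells numbered 431 and 1014 in 4 clusters. *Timp4*, the TIMP that was highest in endothelial-like cells, had 18 UMIs (1.84 CPM) without treatment and 484 UMIs (24.01 CPM) after calcitriol, a log2 ratio of 3.70 [3.03, 4.47]. *Adamts5* (ENSMUSG00000022894, chr16:85856173-85901828, beside *Adamts1*) was at 56.2 and 145 CPM, with a log2 ratio of 1.37 [1.24, 1.502]. At 2000 UMIs per cell, *Adamts5* was found in 10.1% and 23.3% of the cells and *Timp4* in 0.235% and 3.68%. In erythroid-like cells, where haemoglobin took most of the UMIs, these shares were 0.0905% and 0% for *Adamts5* and 0% in both groups for *Timp4*.

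The other members past 2-fold in chondrocyte-like cells were scarce. *Adamts4* was at 4.30 and 9.92 CPM (1.21), *Adamtsl3* at 5.22 and 10.9 CPM (1.06) and *Adamts18* at 1.02 and 2.13 CPM (1.06 [0.04, 2.22]). For *Adamts4*, 1 cell held 52 of the 200 calcitriol UMIs, and the ratio without the highest cells was 0.99. The stromelysin *Mmp10* was lower, at 6.65 and 1.84 CPM (-1.86), with 37 of its 65 untreated UMIs in 1 cell. The gelatinase *Mmp9* had 51 UMIs in the untreated and 1 UMI in the calcitriol cells (-6.72 [-12.05, -4.17]), and 30 of the 51 came from 1 cell. So 5 of 26 measured members were higher (3.48% of all 11483 genes measured in the class) and 2 were lower (4.32% of all genes). The median log2 ratio was 0.12 over the members and -0.06 over all genes. With each cell thinned to one depth, 1 of the members was past 2-fold, and with the members among the variable genes 3 were.

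The clusters of the class went different ways. *Adamts5* was at 51.3 and 217 CPM in the cluster led by *Cytl1* and *Prg4*, a log2 ratio of 2.08, and at 29.7 and 174 CPM in the cluster led by *Chil1* and *Notum* (2.55). It was at 79.0 and 51.0 CPM in the cluster led by *Matn3* and *Epyc* (-0.63) and at 55.0 and 63.8 CPM in the cluster led by the hypertrophy gene *Col10a1* (0.21). *Mmp13* was highest in the *Col10a1* cluster, with 1287 and 1189 CPM (-0.11), and *Mmp14* there was at 103 and 35.2 CPM (-1.55, and -0.84 without scored doublets), with 99 of its 300 untreated UMIs in 1 cell. In the *Chil1* cluster *Mmp13* was at 906 and 269 CPM, but 1101 of its 1280 untreated UMIs lay in 1 cell.

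The abundant members of chondrocyte-like cells were within 2-fold. *Timp3* was at 1089.8 and 1563 CPM (0.52), *Timp1* at 1504 and 1105 CPM (-0.44), *Timp2* at 324 and 394 CPM (0.28) and *Mmp13* at 522 and 307 CPM (-0.77). *Mmp2*, *Mmp3*, *Adamts1* and *Mmp14* had log2 ratios of -0.18, -0.36, 0.23 and -0.91. The 7 synovial lining markers, one of which is also a chondrocyte marker, summed to 15752 and 21528 CPM in the class, and their part in these values was not tested.

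Fibroblast-like cells, defined by *Pdgfra*, *Ly6a* and related genes, numbered 438 and 667. *Mmp3* was at 82.5 and 218 CPM, a log2 ratio of 1.40 [1.25, 1.55], *Adamts4* at 51.7 and 105 CPM (1.02 [0.82, 1.21]) and *Mmp11* at 5.76 and 20.97 CPM (1.86 [1.31, 2.46]). *Mmp13* had 13 and 137 UMIs (2.42 and 15.4 CPM), a log2 ratio of 2.68 [1.85, 3.62], with 79 of the 137 in 1 cell, and 1.97 without the highest cells. In total 4 of 25 measured members were higher (2.89% of all 10135 genes measured in the class) and 0 were lower (3.11% of all genes). The median log2 ratio was 0.11 over the members and -0.10 over all genes.

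*Adamts5* fell short of the 2-fold limit in fibroblast-like cells, at 217 and 404 CPM (0.90). *Timp1* was at 342 and 552 CPM (0.69), *Adamts1* at 423 and 609 CPM (0.53) and *Mmp14* at 209 and 269.9 CPM (0.37). The most abundant members were closer to level, with *Timp2* at 1494 and 1609 CPM (0.11), *Mmp2* at 683 and 783 CPM (0.20), *Timp3* at 346 and 334 CPM (-0.05) and *Adamts2* at 204 and 192 CPM (-0.09). *Mmp19*, *Adamts12* and *Adamtsl4* had log2 ratios of 0.41, -0.18 and -0.56. The 15 chondrocyte markers summed to 2212 and 5182 CPM in this class, and their part was not tested.

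Endothelial-like cells numbered 267 and 307. *Timp4* (ENSMUSG00000030317, chr6:115241892-115252205, inside the region of *Syn2* on the other strand) was at 587 CPM without treatment and 247 CPM after calcitriol, a log2 ratio of -1.25 [-1.38, -1.13], which did not move without the highest cells. The membrane-type *Mmp15* was at 48.8 and 13.9 CPM (-1.81 [-2.33, -1.31]). *Timp1* was at 85.0 and 38.4 CPM (-1.15 [-1.47, -0.83]), but 109 of its 244 untreated UMIs came from 1 cell, and without the highest cells the ratio was -0.57. *Adamts5* was at 25.1 and 61.5 CPM (1.29 [0.90, 1.70]) and *Adamtsl4* at 10.1 and 21.2 CPM (1.07 [0.42, 1.75]). As a mean of the cells' own CPM, *Adamts5* was at 0.68 and *Adamtsl4* turned to -0.47.

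By count, 2 of 17 measured members were higher in endothelial-like cells (1.87% of all 8542 genes measured in the class) and 3 were lower (2.48% of all genes). The median log2 ratio was 0.20 over the members and -0.04 over all genes. *Timp3* was at 1421 and 2229 CPM (0.65), *Adamts1* at 562 and 829 CPM (0.56), *Adamts9* at 249.5 and 373 CPM (0.58), *Adamts4* at 229 and 268 CPM (0.23), and *Timp2* had a log2 ratio of 0.20. The smaller endothelial-like cluster (38 and 38 cells) was led by *Ccl21a*, *Lyve1* and *Mmrn1*, with the lymphatic genes *Flt4* and *Prox1* also among its leading genes. In that cluster *Adamts5* was at 33.6 and 128 CPM (1.93). There 42 of its 108 calcitriol UMIs came from 1 cell, and without the highest cells the ratio was 1.38. In the larger endothelial-like cluster *Adamts5* was within 2-fold (0.77). Markers of other classes differed as well. The synovial lining markers summed to 1057 and 2498 CPM and the chondrocyte markers to 141 and 2046 CPM in endothelial-like cells. Other lists were lower with calcitriol there, with osteoblast markers at 780 and 267 CPM and skeletal muscle markers at 233 and 86.8 CPM. Their part was not tested.

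Smaller classes were described in the same way, without a count against all genes and without naming every member past 2-fold. Synovial lining-like cells (25 and 94) are named after the cells that line the inside of the joint capsule. In them *Adamts5* had 163 UMIs (347 CPM) without treatment and 5288 UMIs (2263 CPM) after calcitriol, a log2 ratio of 2.71 [2.48, 2.94]. Its per-cell median was 172 and 1999 CPM, and at 2000 UMIs per cell it was found in 32.0% and 88.3% of the cells. *Adamts4* had 3 and 165 UMIs there, a log2 ratio of 3.47 [1.90, 5.76]. *Timp1* was at 908 and 567 CPM and *Timp2* at 1289 and 1236 CPM, and *Adamtsl5* had a log2 ratio of -1.22. The synovial lining markers summed to 102530 and 172749 CPM in this class and the chondrocyte markers to 93866 and 167351 CPM, with *Prg4* in both lists. The tendon markers summed to 810 and 55.6 CPM and the erythroid markers to 991 and 7090 CPM. The part of these differences in the member ratios was not tested.

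In tendon-like cells (376 and 479) *Adamts5* was at 109 and 314 CPM, a log2 ratio of 1.53 [1.39, 1.67], and each of the 3 tendon-like clusters was past 2-fold, with 1.79, 1.55 and 1.11. In the same class the synovial lining markers summed to 2984 and 7765 CPM, the chondrocyte markers to 2961 and 8504 CPM and the osteoblast markers to 16340 and 9795 CPM, and their part was not tested. *Mmp3* was at 241 and 481 CPM (0.99), *Mmp13* at 312 and 502 CPM (0.69), *Adamts12* at 2.70 and 10.8 CPM (2.002) and *Mmp23* at 50.8 and 24.7 CPM (-1.04). Of the *Mmp13* UMIs, 577 of 1504 in the untreated and 774 of 3114 in the calcitriol library lay in 1 cell each. Without the highest cells the log2 ratio of *Mmp13* was 0.97. *Timp4* had 7 and 48 UMIs in tendon-like cells, a log2 ratio of 2.41 [1.26, 3.80], with 26 of the 48 in 1 cell. *Adamts8* had 88 and 3 UMIs there (-5.24), with 85 of the 88 in 1 cell. Smooth muscle or pericyte-like cells (45 and 81) had *Timp3* at 1945 and 3696 CPM (0.93) and *Adamts1* at 1151 and 1248 CPM (0.12). In the unnamed cluster *Mmp3* had 2 and 496 UMIs, a log2 ratio of 6.84 [4.98, 9.89], with 146 UMIs in 1 cell, and *Timp3* was at 3107 and 3832 CPM. *Timp4* had 3 and 66 UMIs in that cluster (3.34), with 31 of the 66 in 1 cell. In neutrophil-like cells *Mmp13* was at 873 and 7385 CPM, with 572 of the 871 calcitriol UMIs in 1 cell, and the osteoblast markers there summed to 4081 and 14787 CPM. Their part was not tested.

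*Adamts5* was past 2-fold in the same direction in more clusters than any other member examined across clusters. Of 18 clusters outside the erythroid-like and skeletal muscle-like classes, *Adamts5* was measured in 16, and in 7 of them it was at least 2-fold higher with calcitriol and in 0 at least 2-fold lower. The 7 stayed past 2-fold without the highest cells and without scored doublets. *Mmp13* was higher in 5 and lower in 2 of 12 clusters, and both lower values, in the *Cytl1* and *Chil1* clusters, turned to 2.59 and 0.50 without the highest cell of each library. *Mmp3* was higher in 5 and lower in 1 of 9 clusters, the lower one at -0.94 without the highest cells. *Timp2* was measured in all 18 clusters and was past 2-fold in 0. *Timp4* was higher in 3 of 5 clusters, the *Cytl1*, *Chil1* and unnamed ones, and lower in 1, the larger endothelial-like one. *Timp3* was higher in 2 of 18 and lower in 0, *Timp1* higher in 3 and lower in 1 of 16 (the lower one, in the larger endothelial-like cluster, at -0.93 without the highest cells), and *Mmp2* higher in 0 and lower in 3 of 14. Of the 3 lower values of *Mmp2*, those of the larger endothelial-like cluster and of the *Col10a1* cluster became 0.27 and -0.02 without scored doublets, and that of the osteocyte-like cluster -0.87 without the highest cells. The clusters came from the same 2 libraries, so these counts are not independent of each other.

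The balance of inhibitors and proteases was taken as the ratio of summed TIMP UMIs to summed MMP UMIs in the same cells, which does not depend on the total UMIs. It lay below 1 in osteoblast-like cells, at 0.803 without treatment and 0.511 after calcitriol, a log2 change of -0.65 [-0.68, -0.62]. The cluster led by *Postn* lay below 1 (0.751 and 0.465), whereas that led by *Bglap* lay above it (1.56 and 1.25). *Mmp13* carried the class value, being 52.7% and 78.6% of the MMP UMIs of the class. With *Mmp13* left out of the sum, the ratio was 1.70 and 2.39, a log2 change of 0.49 [0.45, 0.53], in the opposite direction.

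In chondrocyte-like cells the TIMP to MMP ratio was 3.84 and 6.46 (log2 change 0.75 [0.70, 0.80]), and without *Mmp13* it was 12.3 and 18.05. Endothelial-like cells had 13.7 and 21.8 (0.67 [0.49, 0.86]), and this change was 0.22 with scored doublets removed. Fibroblast-like cells had 2.03 and 1.78 (-0.19 [-0.25, -0.14]). Osteocyte-like cells had 4.29 and 6.00 (0.48 [0.15, 0.81]), but the sign was not stable. It was -0.13 after thinning and -0.25 when clusters were left out past any 1 of the 3 quality limits. Tendon-like cells had 1.98 and 1.55, synovial lining-like cells 4.93 and 4.26, and smooth muscle or pericyte-like cells 13.2 and 15.0. The ratio also lay below 1 in the small neutrophil-like class (0.496 and 0.397) and in the tendon-like cluster led by *Igfbp2* and *Sfrp2* (0.925 and 0.691).

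The ratio of TIMP to ADAMTS UMIs gave another order. In synovial lining-like cells it went from 3.63 to 0.712 (log2 change -2.35 [-2.55, -2.15]), where *Adamts5* was higher. *Timp3*, whose product also blocks several ADAMTS proteases, was a small part of the TIMPs there. Its per-cell median was 0 and 39.3 CPM (log2 ratio of the sums 0.79), against 1367 and 1176 CPM for *Timp2*. In osteocyte-like cells it went from 5.21 to 19.5 (1.90), where *Timp1* had 217 and 3904 UMIs, 658 of the latter in 1 cell. *Timp3* had 18 and 122 UMIs in osteocyte-like cells. The *Timp1* difference was smaller in the larger osteocyte-like classes of other settings. The small neutrophil-like class went from 0.649 to 2.63 (2.02). Of its calcitriol UMIs, 130 of 189 for *Timp1* and 112 of 175 for *Timp3* came from 1 cell each. Chondrocyte-like cells had 19.02 and 11.8 (-0.69), and osteoblast-like cells were nearly level with 5.87 and 6.12 (0.06). Fibroblast-like cells had 2.18 and 1.77 (-0.30), and endothelial-like cells 2.24 and 1.89 (-0.24).

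**Figure D3:**
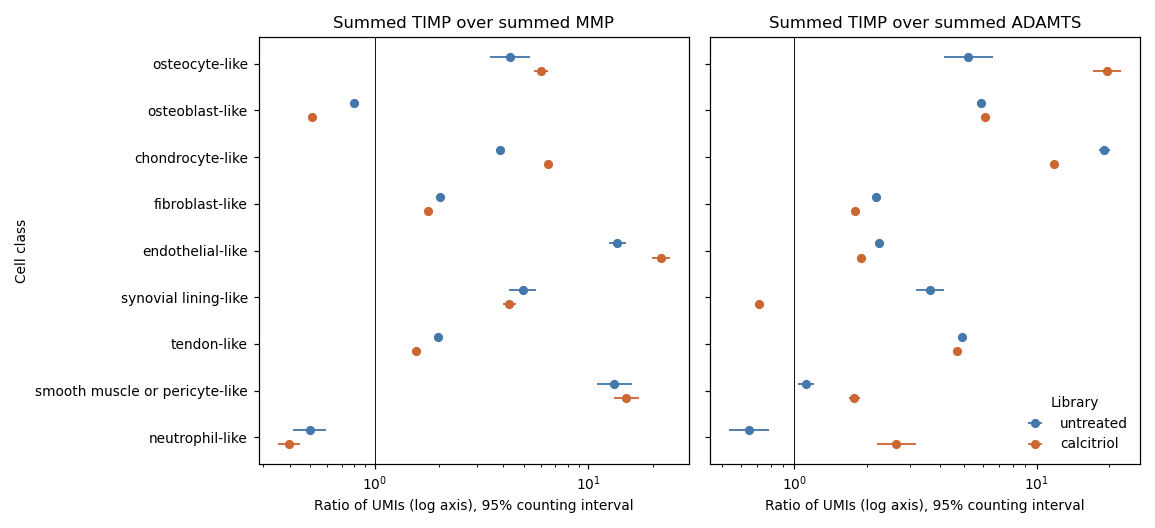
Ratio of TIMP to MMP UMIs and of TIMP to ADAMTS UMIs in untreated and calcitriol cells of each class, on a log axis with counting intervals. Osteoblast-like cells lie below 1 for TIMP to MMP, at 0.803 and 0.511, and synovial lining-like cells move from 3.63 to 0.712 for TIMP to ADAMTS.

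The leading TIMP in the share plot differed by class. *Timp2* led in fibroblast-like cells with 68.4% and 64.5% of the TIMP UMIs, and *Timp3* in endothelial-like cells with 56.7% and 74.6%. In chondrocyte-like cells *Timp1* led in the untreated cells (51.5%, against 37.3% for *Timp3*) and *Timp3* in the calcitriol cells (50.6%, against 35.8%).

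Other genes of matrix turnover were counted in the same 5 classes by the same 2-fold limit. Of 7 genes of plasminogen activation, which feeds into MMP activation, 3 to 5 were measured per class. *Serpine2* was higher in chondrocyte-like cells (261 and 803 CPM, log2 ratio 1.62) and *Plaur* lower in osteocyte-like cells (317 and 144 CPM, -1.14). Of 10 cathepsins and cystatins, *Cst3*, an inhibitor of cysteine proteases, was higher in osteoblast-like cells (4384 and 9825 CPM, 1.16) and lower in osteocyte-like cells (10765 and 5268 CPM, -1.03). *Ctsl* was higher in chondrocyte-like cells (1.28) and *Cstb* in osteocyte-like cells (1.199).

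Of 8 ADAM proteases, *Adam12* and *Adam19* were lower in osteoblast-like cells (-1.32 and -1.996) and *Adam12* in endothelial-like cells (-1.26). Of 14 activators, clearance receptors and other inhibitors, *Bmp1*, *Fap* and *Tfpi2* were higher in osteocyte-like cells (1.21, 1.74 and 4.02, the last with 1 untreated UMI), *Pcsk5* higher in fibroblast-like cells (1.02) and *Pcolce* lower in chondrocyte-like cells (-1.01). The median log2 ratio of each of these 4 lists lay between -0.38 and 0.47 in the 5 classes.

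Among 11 substrates, 5 of 10 measured were lower in osteocyte-like cells (6.09% of all genes there), where *Col1a1* was at 67148 and 21471 CPM (-1.64) and *Comp* at 1357 and 89.4 CPM (-3.92), with a list median of -0.94. *Col10a1* was lower in chondrocyte-like cells (4362 and 2029 CPM, -1.10). *Col2a1* was lower in osteoblast-like cells (-3.19) and fibroblast-like cells (-1.62), where 1 untreated cell held most of its UMIs, and *Col10a1* was higher in the latter (1.42). In endothelial-like cells 4 of 10 measured substrates were higher (1.87% of all genes there) and 3 were lower (2.48% of all genes). The median of the list lay between -0.94 and -0.23 in the 5 classes.

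Of 6 genes of vitamin D response, 3 of 4 measured were higher in osteoblast-like cells (3.29% of all genes there), namely *Spp1* with 9831 and 46409 CPM (2.24), *Vdr* (1.45) and *Enpp1* (1.33). In osteocyte-like cells *Spp1* (2.18) and *Enpp1* (1.203) were higher, in fibroblast-like cells *Spp1* (3.05) and *Tnfsf11* (3.82), in chondrocyte-like cells *Tnfsf11* (1.39) and in endothelial-like cells *Spp1* (4.34, with 2377 of its UMIs in 1 cell). The list medians lay between 0.18 and 4.34, where the 4.34 of endothelial-like cells is *Spp1* alone, the only gene of the list measured there. Of 15 dissociation and immediate early genes, all measured in each class, 0 were past 2-fold in osteoblast-like, fibroblast-like and endothelial-like cells. Over all genes of these classes 3.29%, 2.89% and 1.87% were higher and 2.66%, 3.11% and 2.48% lower, so 0 of 15 is near those shares. In osteocyte-like cells *Hspa1b* and *Dusp1* were higher and *Ier3* lower, and in chondrocyte-like cells *Hspa1a*, *Hspa1b* and *Nr4a1* were higher (1.52, 1.55 and 1.04). The list medians lay between -0.03 and 0.65. Of 11 inflammatory genes, *Lcn2* was higher in chondrocyte-like, fibroblast-like and endothelial-like cells (2.93, 2.49 and 1.86). *Cxcl2* was lower in osteoblast-like, chondrocyte-like and endothelial-like cells (-2.55, -3.28 and -1.46), *Ccl2* was higher in chondrocyte-like cells (4.02, with 310 UMIs in 1 cell), *Il6* in fibroblast-like cells (1.05) and *Ccl7* in endothelial-like cells (1.27), where *Cxcl1* was lower (-1.35). The list medians lay between -0.13 and 0.15. The part of these lists in the member values was not tested.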

How the data were processed

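The authors deposited, per library, the filtered count matrix of Cell Ranger 4.0.0 (mm10, 10x Genomics 3′ kit v3.1), in which each count is a UMI, without normalization. Members, classes and gene lists were chosen with earlier results of these data known. Barcodes under 200 genes were dropped, the libraries were clustered one by one, and clusters past all of 3 limits (median mitochondrial share above 10%, under 1000 genes, under 2000 UMIs) were removed. The libraries were integrated with Seurat 5.3.0 anchors on 2000 variable genes without the members and clustered with 30 components at resolution 0.8 (the authors used Seurat 3.2.2). Markers were counted for a cluster when detected in 10% of its cells and 2-fold above other clusters. Classes were ranked by their markers among the 10 leading genes of the cluster, then by the markers counted. At least 3 counted markers were required, and a tie left a cluster unnamed. The unnamed cluster came from the limit on *Col2a1*, at 10000 CPM for bone classes. Scored doublets (3.04% of untreated and 3.01% of calcitriol barcodes) were kept, since no removal is stated in the sources used here.

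UMIs were summed per class and library and divided by the total UMIs. Ratios have exact conditional intervals (scipy 1.17.1, Python 3.11.15), and where one library had 0 UMIs the ratio was computed with 3 counts in its place. No test between groups was run. The computation was tested on simulated data. Named were the *Timp* genes and members with at least 200 UMIs over all kept cells, with the level in their highest class, which can rest on fewer UMIs. In the 5 classes compared, all members past 2-fold and others with at least 500 UMIs were named. Smaller classes, clusters and *Fgf23* cells were added after their values were seen. Alternatives were the clustering settings, the quality limits, doublets, thinning, the mean of the cells' own CPM, equal cluster weights and the limits of the call. Gene coordinates came from the GENCODE annotation of GRCm38, possibly another release than that of the count matrix, and entered no count. The value of 1 gene of the plasminogen activation list is not reported here.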

Additional observations from a re-analysis of the deposited data

Results flagged for a closer look

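2 members moved in opposite directions in 2 cell classes under the same contrast, and neither difference between the classes was tested, since each group is 1 library. *Timp1* had a log2 ratio of 2.21 in osteocyte-like cells and -1.15 in endothelial-like cells, and without the highest cell of each library these were 2.16 and -0.57. In the larger osteocyte-like classes of 4 other clustering or quality settings, the value of *Timp1* lay between 0.08 and 0.46. Which cells those classes added was not examined. *Timp4* had a log2 ratio of 3.70 in chondrocyte-like cells and -1.25 in endothelial-like cells, and without the highest cells 4.37 and -1.25.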

How the results depend on the processing

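No paired analysis was possible because each group is 1 library, and for the same reason no replicate could be left out. The number of members past 2-fold in chondrocyte-like cells, 7 in the report, was 3 with the members among the variable genes, 3 at resolution 0.5, 4 with 20 components, 1 after thinning to 2000 UMIs and 3 without the highest cell of each library, a setting added after seeing the data. In endothelial-like cells, 5 became 1 after thinning, 3 as a mean of the cells' own CPM and 8 at a limit of 1.5-fold. In fibroblast-like cells, 4 became 2 after thinning, 7 with a minimum of 20 UMIs and 8 at 1.5-fold. In osteoblast-like cells, 2 became 4 as a mean of own CPM and 8 at 1.5-fold. In osteocyte-like cells, 4 became 2 with any of the 3 quality limits and 2 after thinning. No share over all genes is given here for these changed settings, so the counts describe the dependence on processing only.

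The log2 change of the TIMP to MMP ratio was 0.41 after thinning, 0.51 by own CPM and 0.81 with clusters weighted alike in chondrocyte-like cells, 0.22 without doublets and 0.28 by own CPM in endothelial-like cells, and -0.28 without integration in fibroblast-like cells. In osteoblast-like cells it was -0.61 without integration, -0.70 without doublets, -0.58 after thinning and -0.62 without the highest cell. In osteocyte-like cells it reversed to -0.25 with any of the 3 limits and to -0.13 after thinning. Single members that reversed were *Adamts2* (0.13 with the members among the variable genes and 0.085 at resolution 0.5) and *Mmp2* (0.054 with the members among the variable genes, 0.031 with 20 components, 0.69 after thinning) in osteocyte-like cells, and *Adamtsl4* (-0.47 by own CPM) in endothelial-like cells. The cause of these shifts was not tested. Of the values recomputed for counts and ratios, the other 97 stayed close to the main ones. Of those for single members, 247 stayed close, 42 moved without a change of sign and 6 reversed. Among the 42, *Timp1* in osteocyte-like cells lay between 0.08 and 0.46 in 4 settings with a larger class.

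Equal weights could not be given to classes of 1 cluster, and without integration no osteocyte-like cluster was named. Thinning leaves few UMIs of scarce members, and with 24 untreated osteocyte-like cells single cells weigh on every value of that class.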
